A study of Arabidopsis thaliana with 6 samples.

Results

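MYB transcription factors regulate plant genes through a DNA-binding domain of imperfect repeats, and most members of the family in Arabidopsis carry a pair of these repeats (the R2R3 type). Subgroups of closely related members act on separate pathways. Some switch on the suberin of root barriers, the waxes of the shoot surface or the cellulose, xylan and lignin of secondary walls, others repress phenylpropanoid genes, and others set the fate of hair cells or act in hormone and nutrient responses. The genes described here are the rows of the deposited table whose symbol is MYB followed by a number alone. Of 84 such rows, 8 were left out because the rule for membership names them as exceptions, which left 76 of the 32833 genes in the table. Family members that the table spells in another way, such as AtMYB9 or GL1, lie outside the rule and are given only beside the members of their group.

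The seedlings of Arabidopsis thaliana were 8 days old and sampled whole, with RNA sequenced from 3 replicates of the phod2 mutant and 3 replicates of the wild type (WT), which the study calls biological replicates. The series title names the lipoyl synthase LIP1p of the plastid, an enzyme that makes the lipoyl cofactor, and phosphate homeostasis. The deposited table heads the phod2 columns LIP1, and the labels give no allele, line or accession of the plants. The study mentions conditions called HP and LP, which its labels neither spell out nor assign to a library. The comparison addresses how MYB transcript levels in phod2 stand relative to WT, and every fold change is phod2 over WT.

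The libraries held 17319308 to 22417595 counted reads, and the first principal component, with 78.3% of the variance, separated the genotypes. LIP1P had 13.95, 14.23 and 12.92 FPKM in phod2, against 22.26, 20.91 and 23.18 FPKM in WT (log2 fold change -0.74 ± 0.06 (SE), adjusted p = 4.7e-15, edgeR). FPKM are counts scaled to the exonic gene size and to the total of the library, so they can be set side by side between genes. Defining markers of root hairs, endodermis and xylem were present in every genotype, with none at 0 in all libraries. All 8 root hair markers, 7 of 9 endodermis markers and all 7 xylem markers were lower in phod2 at an adjusted p of 0.05 or less, beside 24.6% of all genes tested that were lower and 20.9% that were higher. Without 1 library in turn, 7 to 8 root hair and 6 to 7 xylem markers were lower. In phod2 libraries the markers summed to 13.4 to 14.6 FPKM for root hairs and 43.9 to 46.9 FPKM for endodermis, against 41.2 to 46.9 FPKM and 108 to 117 FPKM in WT libraries. Leaf mesophyll had 2 genes higher and 1 lower of 4. Of the seed genes 1 of 2 tested rose, and 2 without phod2 replicate 3 or WT replicate 3. Of 3 root cap genes 2 fell, but 0 without phod2 replicate 1, 1 without phod2 replicate 3 or WT replicate 2, and 0 in DESeq2. RNA of whole seedlings cannot tell fewer cells of a type from less RNA per cell.

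Before the values, the stretch of 250 bases upstream of the annotated start is shown for the 4 members that differed at least 2-fold and for both members that were higher in phod2 and hold the P1BS motif. P1BS (GNATATNC, palindromic) is the sequence bound by PHR1, the central transcription factor of the phosphate starvation response. The second motif searched was the secondary wall MYB-responsive element (SMRE, which reads ACC, then A or T, then A, then A or C, then C or T, in 8 words searched on both strands), bound by MYB46 and MYB83. Sequences were read from the TAIR10.1 genome and run 5′ to 3′ along the strand of the gene, in lower case with P1BS and SMRE matches in capitals. The windows lie at chr1:25603426-25603675 (plus strand) for MYB62, chr1:3085851-3086100 (plus) for MYB61, chr5:9333285-9333534 (minus) for MYB86, chr1:13077640-13077889 (plus) for MYB8, chr1:27974918-27975167 (plus) for MYB95 and chr4:18053110-18053359 (plus) for MYB4.
MYB62: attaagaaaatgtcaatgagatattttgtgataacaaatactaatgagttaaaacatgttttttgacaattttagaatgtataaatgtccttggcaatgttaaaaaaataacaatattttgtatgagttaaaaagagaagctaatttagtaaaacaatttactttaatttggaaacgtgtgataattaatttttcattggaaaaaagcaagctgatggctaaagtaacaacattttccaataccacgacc
MYB61: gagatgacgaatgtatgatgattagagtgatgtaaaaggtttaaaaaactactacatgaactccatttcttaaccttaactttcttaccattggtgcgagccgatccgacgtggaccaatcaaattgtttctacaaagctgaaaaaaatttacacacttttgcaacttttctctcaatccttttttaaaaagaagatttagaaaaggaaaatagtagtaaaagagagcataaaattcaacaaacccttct
MYB86: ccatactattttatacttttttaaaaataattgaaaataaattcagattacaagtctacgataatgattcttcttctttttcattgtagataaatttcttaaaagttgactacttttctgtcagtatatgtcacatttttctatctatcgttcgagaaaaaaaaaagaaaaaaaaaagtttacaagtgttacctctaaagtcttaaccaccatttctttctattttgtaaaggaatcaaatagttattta
MYB8: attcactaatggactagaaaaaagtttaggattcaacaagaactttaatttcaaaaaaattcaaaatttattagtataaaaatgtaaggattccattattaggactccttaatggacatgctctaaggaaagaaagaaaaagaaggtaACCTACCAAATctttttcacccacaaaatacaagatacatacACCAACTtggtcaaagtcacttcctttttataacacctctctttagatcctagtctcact
MYB95: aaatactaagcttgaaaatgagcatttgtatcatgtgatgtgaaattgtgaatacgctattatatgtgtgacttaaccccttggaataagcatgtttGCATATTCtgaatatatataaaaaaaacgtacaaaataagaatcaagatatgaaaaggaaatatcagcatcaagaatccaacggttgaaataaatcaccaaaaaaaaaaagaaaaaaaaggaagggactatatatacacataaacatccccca
MYB4: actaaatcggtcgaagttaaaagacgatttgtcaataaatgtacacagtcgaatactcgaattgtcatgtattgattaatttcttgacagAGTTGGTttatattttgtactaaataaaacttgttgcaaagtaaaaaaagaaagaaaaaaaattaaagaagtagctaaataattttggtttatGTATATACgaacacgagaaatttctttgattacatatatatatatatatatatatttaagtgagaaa
The windows of MYB62, MYB61 and MYB86 held neither motif. MYB8 held 3 SMRE words, starting 102, 98 and 60 bases before its start, of which the first pair overlap. MYB95 held a P1BS match starting 153 bases before its start. MYB4 held a P1BS match at 67 bases and an SMRE word on the other strand at 160 bases. A P1BS match was in 1093 of 20091 windows of tested genes (5.44%), in 3 of 43 windows of tested members (6.98%), in 2 of the 7 members higher in phod2 and in 0 of the 16 members lower in phod2. The remaining holder, MYB56, whose window is not shown, held its match at 172 bases. MYB56 did not pass the test (log2 fold change -0.23, adjusted p = 0.376, edgeR). An SMRE word was in 29.7% of all windows, in 15 of 43 windows of tested members (34.9%), in 3 of the 7 higher members and in 5 of the 16 lower members. A match is a stretch of letters and no measured binding site, and both shares of the tested members lay near those of all genes.

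Of the 76 members, 10 had 0 counts in all 6 libraries, and 16 had 1 to 20 counts in all libraries together. An observed count of 0 still allows an expected count of up to about 3 in a library. Mean levels over the 6 libraries reached 10 FPKM or more in 7 members, lay between 1 and 10 FPKM in 24 and were below 1 FPKM in 45. The 7 were MYB73, MYB44, MYB30, MYB4, MYB59, MYB6 and MYB60, in falling order. The members summed to 270, 264 and 265 FPKM in phod2, against 302, 294 and 288 FPKM in WT, so the phod2 libraries lay below the WT libraries. Abundant members weigh most in these sums. MYB73 averaged 48.8 FPKM in phod2, against 62.2 FPKM in WT, and MYB44 averaged 23.3 FPKM, against 36.2 FPKM. Of the 43 members tested below, 25 had estimates below 0 and 18 above 0.

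**Figure D1:**
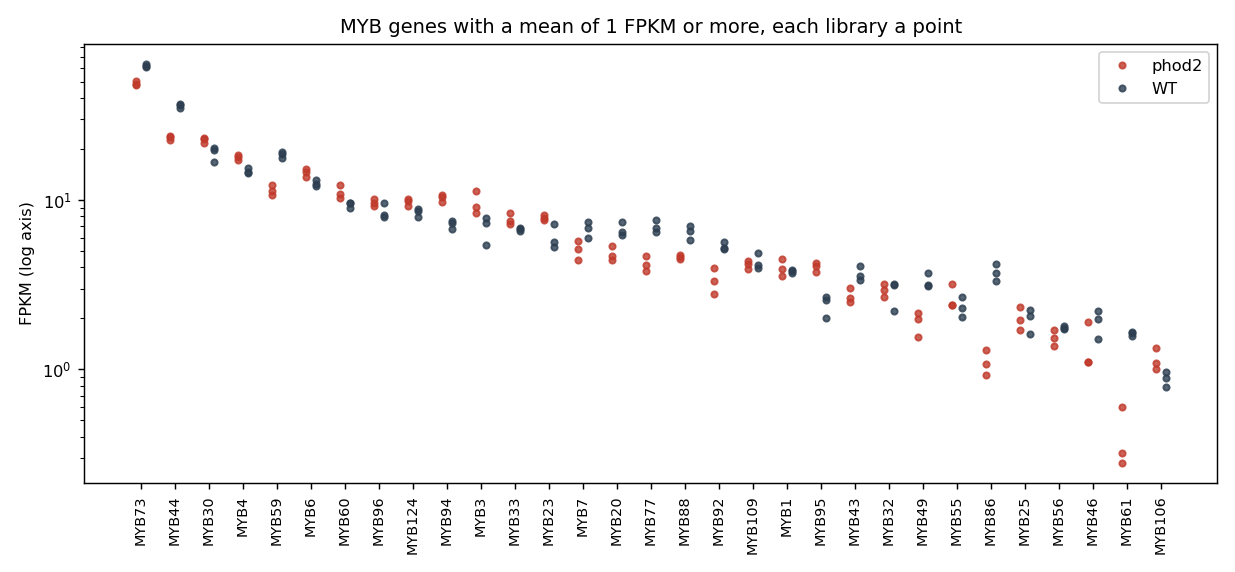
Each point is the level of one MYB gene in one library, in FPKM on a log axis, for members with a mean of 1 FPKM or more, ordered by that mean, phod2 left of WT. MYB73 stood highest in both genotypes, and MYB86 and MYB61 showed the widest gaps between genotypes.

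A filter on low counts kept 43 of the 76 members for testing and left 33 untested, among them all 5 flavonoid activators and all 5 stamen and petal members. By the rule of the study, an adjusted p of 0.05 or less with at least a 2-fold change (edgeR quasi-likelihood test, Benjamini-Hochberg over 20169 genes), 1 tested member was higher in phod2 (2.33%, beside 1.79% of all genes tested) and 3 were lower (6.98%, beside 5.72%). These shares were near the background. By the adjusted p alone, 7 members were higher (16.3%, beside 20.9% of all genes) and 16 were lower (37.2%, beside 24.6%), while 20 did not pass. The median log2 fold change of the tested members was -0.13, against 0.01 over all genes tested. Levels of all phod2 libraries lay above all WT libraries in 13 tested members (30.2%, beside 30.8% of all genes) and below them in 18 (41.9%, beside 23.3%). The members, role groups and lists set beside all genes, above and below, were chosen with earlier results of these data known. Their shares are therefore descriptions and no independent test.

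**Figure D2:**
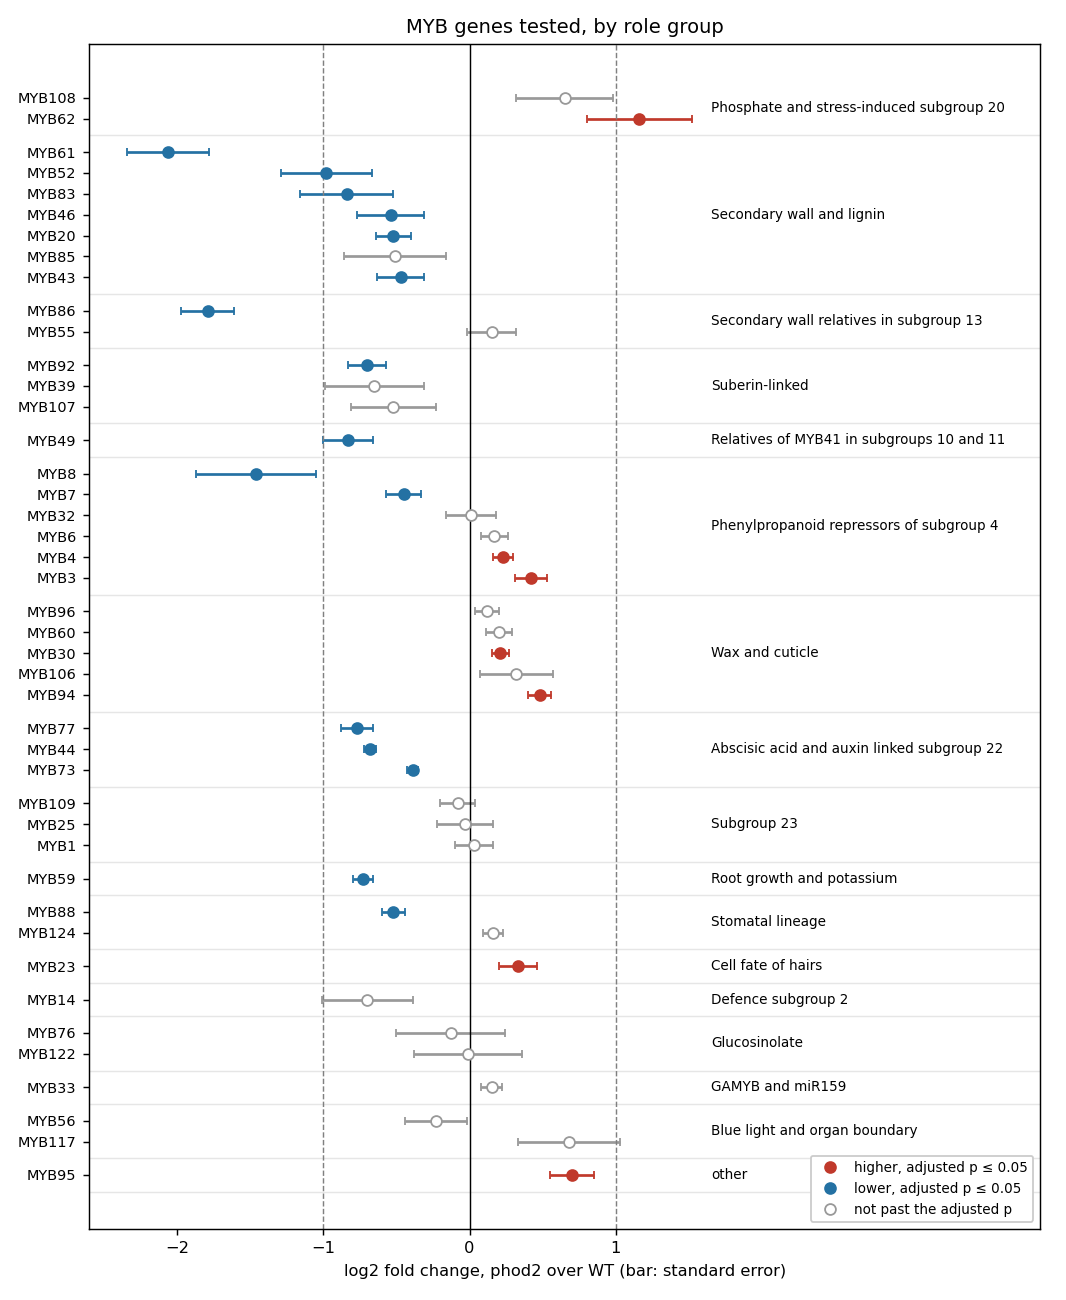
Points are the log2 fold changes of the 43 tested MYB genes, phod2 over WT, grouped by role, with bars of 1 standard error and dashed lines at a 2-fold change. Filled red and blue points passed the adjusted p of 0.05 as higher and lower, open points did not. MYB61 at -2.06 and MYB86 at -1.79 lay farthest below 0, and MYB62 at 1.16 farthest above.

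MYB62 (AT1G68320, chromosome 1, positions 25603676 to 25605181, plus strand) was the member that rose at least 2-fold. It is known as a factor induced in leaves of phosphate-starved plants that acts on phosphate starvation and gibberellin responses. Its level was 0.84, 0.78 and 0.87 FPKM in phod2, against 0.30, 0.48 and 0.31 FPKM in WT. Every phod2 library lay above every WT library, though the values rested on 20, 20 and 24 counts in phod2, against 9, 11 and 9 counts in WT. The log2 fold change was 1.16 ± 0.36 (SE, 2.23-fold, adjusted p = 0.00645, edgeR). The adjusted p of DESeq2 was 0.0499, at the threshold, and edgeR no longer called MYB62 when tested against a change of 2-fold.

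None of the other members of its subgroup (subgroup 20) passed the test. MYB108, a factor of stamen maturation and of the response to necrotrophic fungi, had 0.68, 0.55 and 0.95 FPKM in phod2, against 0.24, 0.37 and 0.74 FPKM in WT, and the groups overlapped (log2 fold change 0.65 ± 0.33, adjusted p = 0.0993). WT replicate 3 was far above the other WT libraries, and without it the change was 1.25 with an adjusted p of 0.00969. MYB112, which promotes anthocyanin under stress, was too low to test, with 7, 6 and 6 counts in phod2, against 7, 6 and 2 counts in WT. MYB116 had 0 counts in all libraries. MYB2 and MYB78 of the same subgroup, outside the rule, were also too low to test, at 0.0867 and 0.103 FPKM on average in phod2, against 0.0200 and 0.237 FPKM in WT.

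Of the 3 suberin-linked members, MYB92 fell and MYB39 and MYB107 did not pass the test, with estimates of like size. The share that fell was 33.3%, beside 24.6% of all genes lower. Suberin is the waxy barrier that root endodermis and seed coats lay down. MYB92 (AT5G10280, chromosome 5, positions 3232569 to 3234277, plus strand), which switches on fatty acid and suberin genes, had 2.79, 3.33 and 3.95 FPKM in phod2, against 5.65, 5.16 and 5.18 FPKM in WT. The groups were apart, and the log2 fold change was -0.70 ± 0.13 (adjusted p = 6.5e-06). MYB39 (SUBERMAN, AT4G17785, chromosome 4, positions 9881599 to 9883432, minus strand), an activator of endodermal suberin, had 0.41, 0.55 and 0.41 FPKM in phod2, against 0.62, 0.85 and 0.65 FPKM in WT. Its groups were also apart, but on 11 to 16 counts in phod2, against 21 to 22 counts in WT, the change of -0.65 ± 0.34 did not pass (adjusted p = 0.112). MYB107 (AT3G02940, chromosome 3, positions 661849 to 664011, plus strand), an activator of seed coat suberin, had 0.50, 0.89 and 0.72 FPKM in phod2, against 0.86, 1.08 and 1.05 FPKM in WT. Here the groups overlapped (log2 fold change -0.52 ± 0.29, adjusted p = 0.136).

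The suberin-linked genes outside the rule and the genes of suberin synthesis lay lower as well. MYB93, active in the endodermis above lateral root primordia, fell to 2.10 ± 0.325 FPKM in phod2, against 3.94 ± 0.430 FPKM in WT (SD, n = 3 each, log2 fold change -0.95, adjusted p = 1.5e-06, edgeR). MYB9, a partner of MYB107 in seed coats, fell by 1.21 on the log2 scale (adjusted p = 2.3e-04), but 59.4% of the gene overlaps DOT2 on the other strand, whose reads may be counted with it. MYB70 fell by 0.35 (adjusted p = 2.5e-04), MYB53 had -0.63 (adjusted p = 0.0517, or 0.00938 without WT replicate 2), and MYB41 was too low to test, with 0.16, 0.15 and 0.27 FPKM in phod2, against 0.32, 0.75 and 0.83 FPKM in WT. Of the 15 genes in the list of suberin synthesis and export, 12 of the 14 tested fell and 0 rose, beside 24.6% lower and 20.9% higher of all genes, with a median of -0.89. Lowest in adjusted p were ABCG6 (-1.72), an exporter of suberin precursors, CYP86A1 (-1.11) and FAR5 (-1.31), which make its omega-hydroxy acids and alcohols, and ASFT (-0.88), which adds ferulate. KCS20 (-0.01) and ABCG1 (-0.15) did not pass. The summed level of the list was 151, 152 and 160 FPKM in phod2, against 206, 202 and 201 FPKM in WT. Endodermis markers, whose 5 CASP genes build the Casparian strip, were lower in the same libraries, with a median log2 fold change of -1.96, although 2 of the 9 had estimates above 0. SCR, the regulator of endodermal identity, had 0.10 (adjusted p = 0.125, or 0.0388 without phod2 replicate 1). ESB1, which helps shape the Casparian strip, had 0.65 (adjusted p = 0.139), with every phod2 library above every WT library. The part of these markers in the suberin result was not tested.

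**Figure D3:**
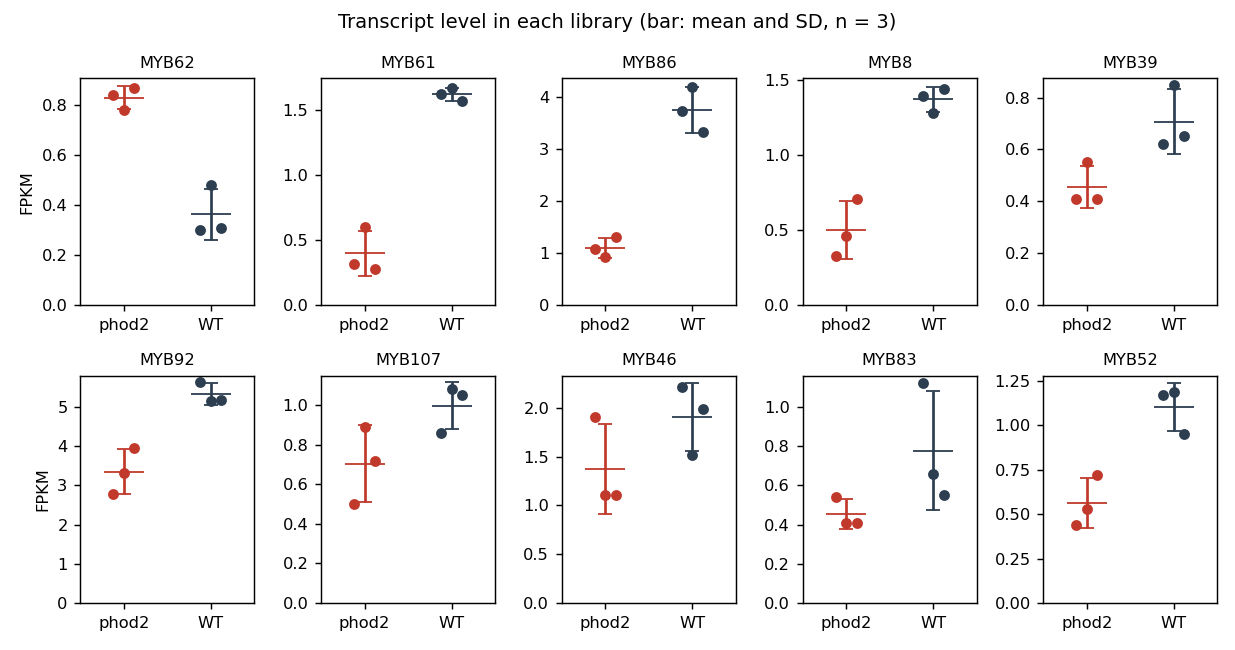
Points are FPKM in the 3 phod2 and 3 WT libraries for 10 MYB genes, those called at 2-fold, the suberin-linked members and MYB46, MYB83 and MYB52 of the secondary wall group, with horizontal lines and bars for mean and SD (n = 3). The points of MYB61, MYB86 and MYB8 lie far apart between genotypes, while those of MYB46 and MYB107 overlap.

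Of the 11 members of the secondary wall group 7 were tested, of which 6 fell, 0 rose and 1 did not pass, with a median of -0.54, beside 24.6% of all genes lower. The number that fell was 3 without phod2 replicate 3, 3 without WT replicate 1 and 2 in DESeq2. MYB61 (AT1G09540, chromosome 1, positions 3086101 to 3087914, plus strand), known for xylem formation, stomatal closure and seed mucilage, had the lowest fold change among the tested members. Its level was 0.32, 0.60 and 0.28 FPKM in phod2, against 1.63, 1.67 and 1.57 FPKM in WT. WT libraries were close to each other and all far above phod2 (log2 fold change -2.06 ± 0.28, 4.18-fold lower, adjusted p = 1.0e-08, edgeR). MYB46 and MYB83, which act together as the switches of secondary wall synthesis below the NAC factors, changed less. MYB46 had 1.91, 1.11 and 1.11 FPKM in phod2, against 2.21, 1.52 and 1.99 FPKM in WT, and MYB83 had 0.54, 0.41 and 0.41 FPKM in phod2, against 1.12, 0.66 and 0.55 FPKM in WT. The groups of MYB46 overlapped, and those of MYB83 were nearly in contact. Both passed narrowly, MYB46 at -0.54 ± 0.23 (adjusted p = 0.0483) and MYB83 at -0.84 ± 0.32 (adjusted p = 0.0252). MYB46 did not pass in 9 of 13 other settings, among them DESeq2 (adjusted p = 0.201) and the fits without phod2 replicate 2 or 3 or WT replicate 1 or 3 (0.124 to 0.214). MYB83 rested on WT replicate 1, without which it had -0.45 (adjusted p = 0.353). It also failed without phod2 replicate 2 (0.0807) or 3 (0.0875) and in DESeq2 (0.13). In limma it failed on log2(FPKM + 1) (0.086) and on log2(FPKM + 0.1) (0.0843).

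Factors that act below these switches also lay lower. MYB52, with a role in wall and mucilage pectin, had 0.44, 0.53 and 0.72 FPKM in phod2, against 1.17, 1.19 and 0.95 FPKM in WT (log2 fold change -0.98 ± 0.31, adjusted p = 0.00758, edgeR), just short of 2-fold. It passed 2-fold without phod2 replicate 3 or without WT replicate 3, and in DESeq2 its adjusted p was 0.0521. The lignin activators MYB20 and MYB43 had 4.83 ± 0.488 and 2.72 ± 0.272 FPKM in phod2, against 6.70 ± 0.662 and 3.65 ± 0.366 FPKM in WT (SD, n = 3 each). They fell by 0.52 (adjusted p = 1.9e-04, edgeR) and 0.47 (adjusted p = 0.0104) on the log2 scale. MYB20 had the highest mean level of the group. MYB43 lost the call in DESeq2 (adjusted p = 0.0692), without phod2 replicate 3 (0.0526) and without WT replicate 1 (0.0754). MYB85, another lignin activator, had overlapping groups (-0.51, adjusted p = 0.23), and MYB42, MYB99, MYB26 and MYB58 were not tested. A gene on the other strand overlaps 100% of MYB58 and held 112 counts in phod2, against 73 in WT. Reads of MYB58 may therefore have been assigned elsewhere. Outside the rule, MYB63, a lignin activator, fell by 0.98 (adjusted p = 0.00536), while MYB54 (-0.49, adjusted p = 0.175) and MYB103 (-0.53, adjusted p = 0.26) did not pass.

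MYB86 (AT5G26660, chromosome 5, positions 9331565 to 9333284, minus strand), a sequence relative of MYB61 in subgroup 13, had the second lowest fold change. Its level was 1.07, 0.93 and 1.30 FPKM in phod2, against 3.73, 4.19 and 3.32 FPKM in WT, from 31, 29 and 44 counts in phod2, against 135, 117 and 116 counts in WT. The groups were far apart (log2 fold change -1.79 ± 0.18, 3.47-fold lower, adjusted p = 3.6e-13, edgeR). MYB50 of the same subgroup, outside the rule, fell to 0.823 ± 0.108 FPKM in phod2, against 1.71 ± 0.218 FPKM in WT (SD, n = 3 each, adjusted p = 2.3e-04, edgeR). MYB55, also of this subgroup, had 3.21, 2.39 and 2.41 FPKM in phod2, against 2.04, 2.29 and 2.67 FPKM in WT, with overlapping groups (0.15 ± 0.17, adjusted p = 0.511).

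The wall-building genes themselves were lower too. Of 20 genes in the secondary wall list, 17 of the 18 tested fell and 0 rose, beside 24.6% lower and 20.9% higher of all genes, with a median of -0.81. The number that fell was 15 to 17 without 1 library in turn and 14 in DESeq2. There VND6 (adjusted p = 0.1), VND7 (0.101) and IRX6 (0.056) lost the call. XCP1 (-1.14), a xylem protease, LAC4 (-1.02) and LAC17 (adjusted p = 1.4e-17), the laccases that polymerise lignin, and IRX7 (-1.18), a xylan synthesis enzyme, had the lowest adjusted p. The summed level was 118, 114 and 115 FPKM in phod2, against 194 FPKM in each WT library. The xylem markers, of which 6 of 7 belong to this list as well, summed to 89.4 to 95.2 FPKM in phod2, against 141 to 143 FPKM in WT, so the list and these markers are not separate measures. Phloem markers summed to 121 to 126 FPKM in phod2, against 127 to 129 FPKM in WT, and 2 of their 4 genes fell. The part of the xylem, endodermis and root hair markers in the fall of these MYB genes was not tested.

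**Figure D4:**
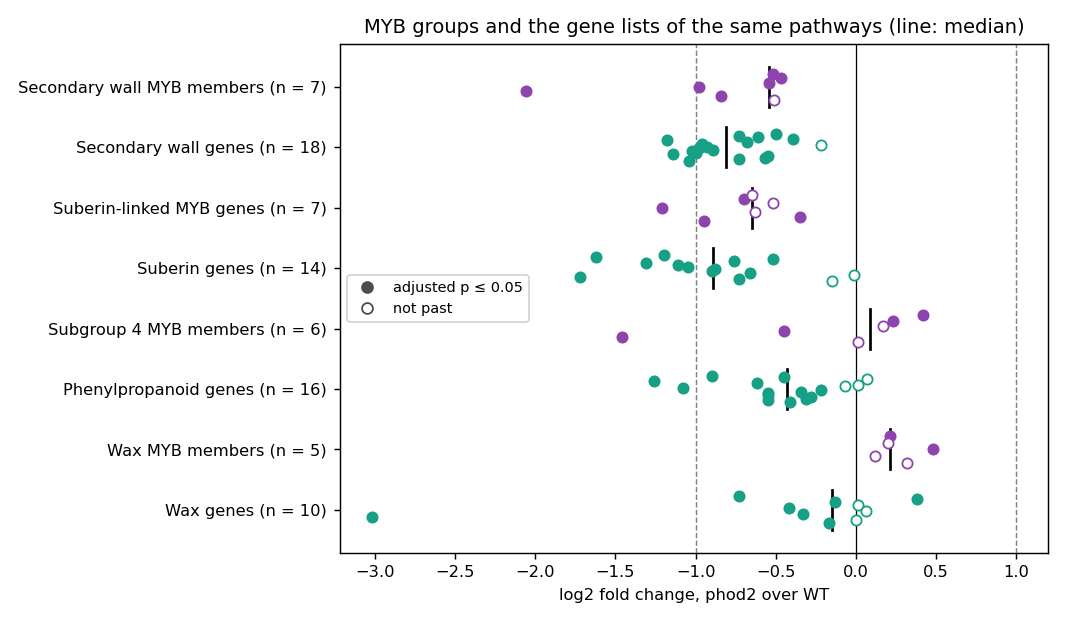
Points are log2 fold changes, phod2 over WT, of MYB genes (purple) and of pathway genes (green) for 4 pathways, filled where the adjusted p was 0.05 or less, with a black line at each median. In the secondary wall and suberin rows all points lie below 0, while the wax MYB members lie above 0 and subgroup 4 spreads on both sides. The suberin-linked row joins 3 members and 4 genes outside the rule.

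Subgroup 4 holds 6 repressors of phenylpropanoid genes, all of them tested, with 2 higher in phod2 and 2 lower. Each share was 33.3%, beside 20.9% higher and 24.6% lower of all genes. Whether a set of 6 differs from that background was not tested. MYB4, the repressor of the lignin and sinapate enzyme C4H and the highest of the group, had 18.47, 17.97 and 17.25 FPKM in phod2, against 14.48, 15.47 and 14.63 FPKM in WT. It rose with the groups apart (log2 fold change 0.23 ± 0.07, adjusted p = 0.00311, edgeR). MYB3, another repressor, rose by 0.42 ± 0.11 (adjusted p = 0.00117), at 9.04, 11.24 and 8.38 FPKM in phod2, against 7.86, 5.44 and 7.32 FPKM in WT, and lost the call without phod2 replicate 2 (0.28, adjusted p = 0.0535). MYB7, a repressor of flavonol genes, fell by 0.45 ± 0.12 (adjusted p = 0.00184), at 5.09 ± 0.648 FPKM in phod2, against 6.74 ± 0.727 FPKM in WT (SD, n = 3 each). MYB6 (0.17, adjusted p = 0.112) and MYB32 (0.01, adjusted p = 0.971) did not pass.

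MYB8 (AT1G35515, chromosome 1, positions 13077890 to 13080265, plus strand) was the third member called lower at 2-fold, but its value is uncertain. Its level was 0.33, 0.46 and 0.71 FPKM in phod2, against 1.39, 1.28 and 1.44 FPKM in WT, from 4, 6 and 10 counts in phod2, against 21, 15 and 21 counts in WT (log2 fold change -1.46 ± 0.41, adjusted p = 0.00231, edgeR). The groups were apart. Another gene on the same strand, AT1G35516, overlaps 57.2% of it and held 3025 counts in phod2, against 2586 in WT, so reads of the shared part could be given to either.

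The list of general phenylpropanoid and monolignol enzymes had 13 of its 16 genes lower and 0 higher, beside 24.6% and 20.9% of all genes, with a median of -0.43. PAL1 (-0.90) and C4H (-0.62), the entry enzymes, CCOAOMT1 (-0.55), a methyltransferase of lignin precursors, and PAL4 (-1.26) had the lowest adjusted p, while 4CL1, 4CL2 and PAL3 did not pass. The activators of flavonoids among the members (MYB5, MYB11, MYB90, MYB113 and MYB114) had at most 4 counts in any library, MYB11 being the highest, so a difference was not detectable at this depth. The same held for the stamen and petal members (MYB21, MYB24, MYB35, MYB57 and MYB80), with at most 2 counts in any library and MYB35 the highest. M3KE1 on the other strand overlaps 100% of MYB5 and held 3128 counts in phod2, against 4362 in WT. The 0 counts of MYB5 may thus also come from how shared reads were assigned, which was not tested. MYB24 is overlapped over 100% as well, by a gene with 1 count in phod2, against 0 in WT.

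Of the 5 members of the wax and cuticle group 2 rose, 0 fell and 3 did not pass, beside 20.9% higher and 24.6% lower of all genes. MYB94, an activator of wax genes in drought, had 10.41, 9.75 and 10.78 FPKM in phod2, against 6.78, 7.28 and 7.49 FPKM in WT. All phod2 libraries were higher (log2 fold change 0.48 ± 0.08, adjusted p = 1.1e-06, edgeR). MYB30, which promotes very-long-chain fatty acid synthesis and hypersensitive cell death, had the highest mean level of the group. It had 21.76, 23.11 and 22.87 FPKM in phod2, against 20.36, 19.79 and 16.84 FPKM in WT (0.21 ± 0.06, adjusted p = 0.00177), and lost the call without WT replicate 3 (0.13, adjusted p = 0.0775). MYB60, a guard cell factor of stomatal opening, had 0.20 (adjusted p = 0.058, or 0.031 without phod2 replicate 1), MYB96, a partner of MYB94, had 0.12 (adjusted p = 0.238), and MYB106, a factor of cuticle and trichome shape, had 0.32 (adjusted p = 0.303). MYB106 overlaps a gene on the other strand over 80.3% of its length. Outside the rule, MYB16 (0.00, adjusted p = 0.959) and MYB31 (-0.10, adjusted p = 0.663) of the same group did not pass. Guard cell markers summed to 25.8 to 27.5 FPKM in phod2, against 22.3 to 23.6 FPKM in WT. Of the 4 markers FAMA (0.31) and HT1 (0.40) rose, KAT1 (0.06) did not pass and MUTE fell by 0.86 (adjusted p = 0.0118), a call lost without phod2 replicate 3 (0.12) or WT replicate 1 (0.0738) and in DESeq2 (0.0743). Their part in these values was not tested.

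Of the wax list, 1 gene rose, 6 fell and 3 of the 10 tested did not pass, beside 20.9% higher and 24.6% lower of all genes, with a median of -0.15. A second gene, the wax ester synthase WSD1, entered the test and rose without phod2 replicate 3, WT replicate 2 or WT replicate 3, and also rose without a filter and in DESeq2 (adjusted p = 0.0391). KCS6, the elongase of shoot wax, rose to 206 ± 4.73 FPKM in phod2, against 154 ± 3.71 FPKM in WT (SD, n = 3 each, log2 fold change 0.38, adjusted p = 3.0e-20, edgeR). CER4, an alcohol-forming reductase, had the largest change, at 0.253 ± 0.0404 FPKM in phod2, against 2.05 ± 0.445 FPKM in WT (log2 fold change -3.02). KCS1 (-0.73) and CER1 (-0.42), which makes alkanes, also fell. MYB49, a relative of MYB41, had 2.16, 1.56 and 1.99 FPKM in phod2, against 3.15, 3.70 and 3.09 FPKM in WT. It fell by 0.83 ± 0.17 (adjusted p = 5.1e-05), and its relative MYB74, outside the rule, fell by 0.81 (adjusted p = 2.3e-04). MYB102 of the same group, also outside the rule, was too low to test. It had 0.28, 0.63 and 0.31 FPKM in phod2, against 0.13, 0.17 and 0.26 FPKM in WT. Every phod2 library lay above every WT library for MYB102.

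All 3 members of subgroup 22 fell, beside 24.6% of all genes lower, and they include both of the most abundant members. MYB73, linked to salt and auxin responses, had 50.35, 47.79 and 48.35 FPKM in phod2, against 63.68, 62.06 and 60.71 FPKM in WT. MYB44, a regulator of abscisic acid signalling and stomatal closure, had 23.60, 22.52 and 23.73 FPKM in phod2, against 36.79, 35.20 and 36.50 FPKM in WT. The spread within each genotype was small beside these gaps, with log2 fold changes of -0.39 ± 0.04 for MYB73 (adjusted p = 2.5e-12, edgeR) and -0.68 ± 0.04 for MYB44 (adjusted p = 5.0e-20). MYB77, which acts with auxin response factors in lateral root growth, had 3.81, 4.65 and 4.16 FPKM in phod2, against 7.57, 6.51 and 6.85 FPKM in WT (-0.77 ± 0.11, adjusted p = 1.3e-08). MYB44 overlaps CYP81G1 on the other strand over 39.8% of its length, and that gene held 4 counts in each genotype. In the neighbouring subgroup 23, MYB109 (-0.08), the highest of the group, MYB25 (-0.03) and MYB1 (0.03) had overlapping groups and did not pass.

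MYB59, which acts in root growth and potassium and nitrate transport, was the fifth highest member. It had 12.35, 11.28 and 10.73 FPKM in phod2, against 17.67, 18.69 and 19.09 FPKM in WT, with the groups apart (log2 fold change -0.73 ± 0.07, adjusted p = 7.1e-14, edgeR). Its close relative MYB48, outside the rule, rose by 0.28 (adjusted p = 0.00806), and lost that call without WT replicate 2 (0.20, adjusted p = 0.0931). Of the stomatal lineage pair, which limits divisions of the guard mother cell, MYB88 fell and MYB124 did not pass. MYB88 had 4.58, 4.75 and 4.46 FPKM in phod2, against 6.52, 6.98 and 5.80 FPKM in WT (-0.52 ± 0.08, adjusted p = 7.0e-08), and MYB124 had 10.08, 9.19 and 9.84 FPKM in phod2, against 8.59, 8.90 and 7.89 FPKM in WT (0.16, adjusted p = 0.0628, or 0.0436 without phod2 replicate 2 and 0.044 without WT replicate 2). The estimates of this pair had opposite signs, and their difference was not tested.

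MYB23, which works with GL1 in trichomes and with WER in the root epidermis, had 8.19, 7.66 and 7.82 FPKM in phod2, against 7.21, 5.67 and 5.30 FPKM in WT. It rose by 0.33 ± 0.13 (adjusted p = 0.0273, edgeR), a call lost in DESeq2 (0.112) and without phod2 replicate 1, WT replicate 2 or WT replicate 3 (0.0781 to 0.176). Outside the rule its partners parted. GL1, the trichome activator, rose to 5.42, 4.32 and 4.96 FPKM in phod2, against 2.08, 1.96 and 1.91 FPKM in WT (1.26, adjusted p = 4.9e-08). WER, the activator of the hairless root cell fate, fell to 1.02, 1.15 and 0.91 FPKM in phod2, against 2.13, 3.26 and 2.32 FPKM in WT (-1.34, adjusted p = 1.3e-06). MYB82, another trichome factor, was below the filter with 7, 16 and 12 counts in phod2, against 9, 5 and 1 counts in WT. It passed without phod2 replicate 1 (1.45, adjusted p = 0.0318) or WT replicate 1 (1.87, adjusted p = 0.0181). It did not pass without WT replicate 2 (0.0691) or 3 (0.287), without a filter (0.0662) or in DESeq2 (0.181).

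Of the 12 proteins that bind or oppose these MYB factors, 4 genes rose, 3 fell and 5 did not pass, with a median of 0.19. The shares were 33.3% higher and 25% lower, beside 20.9% and 24.6% of all genes. With each library left out in turn 3 genes rose, and 1 fell without phod2 replicate 3 or WT replicate 2. The small MYB proteins TRY (1.08, adjusted p = 0.00594) and ETC1 (1.27, adjusted p = 7.6e-04), which compete with the activators for their partners, and the partner TT8 (1.07, adjusted p = 0.00604), a bHLH factor of flavonoid genes, rose at least 2-fold, TT8 losing the call without phod2 replicate 1 (0.86, adjusted p = 0.0632). MYBL2, an inhibitor of anthocyanin genes, fell by 0.64 (adjusted p = 3.4e-09). Root hair markers were lower in the same phod2 libraries, with a median log2 fold change of -1.76, and their part in the values of WER, GL1 and MYB23 was not tested. The cell cycle regulators of the 3R type had 4 of 5 genes tested, of which 1 fell and 0 rose. That gene, MYB3R4 (-0.20, adjusted p = 0.0124), lost the call without WT replicate 1 (0.0798) or 2 (0.0545), in limma and in DESeq2 (0.0742).

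Most of the remaining members gave no difference that passed. MYB95, a member with no role group and the highest of those, rose by 0.70 ± 0.15 (adjusted p = 1.0e-04, edgeR), with 4.08, 4.23 and 3.77 FPKM in phod2, against 2.56, 2.67 and 2.00 FPKM in WT. A gene on the other strand overlaps 41.2% of it and held 210 counts in phod2, against 195 in WT. MYB33, a gibberellin-type MYB held down by the microRNA miR159, had 8.34, 7.19 and 7.47 FPKM in phod2, against 6.84, 6.75 and 6.57 FPKM in WT (0.15, adjusted p = 0.0983). MYB14, a factor of cold tolerance, had 0.67, 0.76 and 0.75 FPKM in phod2, against 1.36, 1.07 and 1.03 FPKM in WT. Its groups were apart, yet the change of -0.70 ± 0.31 did not pass in edgeR (adjusted p = 0.0577), while limma on log2(FPKM + 1) gave 0.0209.

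Both glucosinolate factors, MYB76 of the aliphatic branch (-0.13) and MYB122 of the indolic branch (-0.01), had overlapping groups below 1 FPKM in every library. In the organ boundary group, MYB117, which separates lateral organs, had 0.68 ± 0.35 (adjusted p = 0.109), and MYB56, the highest of the group, had -0.23 ± 0.21 (adjusted p = 0.376). MYB87, a relative of the axillary meristem regulators, was below the filter, with 0 counts in each phod2 library, against 9, 3 and 1 counts in WT, and passed in both fits that took it in, edgeR without a filter (adjusted p = 0.00644) and DESeq2 (0.0265). Its relatives outside the rule MYB68 (-1.29, adjusted p = 1.3e-12), RAX1 (-1.09, adjusted p = 0.00663) and RAX2 (-0.65, adjusted p = 3.5e-05) fell, and RAX3 (-0.27, adjusted p = 0.389) did not pass.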

How the data were processed

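The deposited table gives whole-number counts per gene and library, per the file headers, and the authors' FPKM, which equal the count divided by exonic gene size and library total to within 0.005. The exonic gene sizes are another deposited column, per the file headers, in bases. For aligner, counter and strand, the methods were not given in the sources used here, and the genome build in the submitters' processing notes is a mouse build that does not match the Arabidopsis identifiers. Of the table's identifiers 32548 were in TAIR10.1, 32532 with the same start and end, all 76 members among them, so sequences were read from TAIR10.1 at the table's coordinates, counted from 1.

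Columns were matched to libraries by their labels. Counts were tested by edgeR 4.0.16 (glmQLFit, glmQLFTest, 2-sided) in R 4.3.3 with TMM factors, after filterByExpr left 20169 genes, on genotype alone. Standard errors are the size of the log2 change over the square root of F. P-values reflect only the spread among these 6 libraries. Replicates of a genotype were no copies of each other, with a chi-square of 1.57 to 2.07 per degree of freedom. That check speaks only to copied libraries. Whether the replicates were grown or pooled separately was not tested. The common biological coefficient of variation was 2.83%, a small spread on which the very low p-values rest. In simulated counts of 20013 genes, the adjusted p found 78.8% of 1.5-fold, 95.5% of 2-fold and 98.5% of 4-fold changes, and 4.74% of the genes it passed were unchanged. The simulation changed few genes, drawn over the levels of all genes tested. Detection among low MYB genes was not measured, so a low member that did not pass may still differ.

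The members, role groups and lists were chosen with earlier results of these data known. Named are members called at 2-fold, MYB62, the suberin-linked members, the highest member of each role group, up to 4 examples per list with the lowest adjusted p, and, after their values were seen, the other tested members and genes of the same groups. Alternatives were DESeq2 1.42.0, library totals, other filters, limma 3.58.1 on log2 FPKM, glmTreat, a replicate block and each library left out. Overlaps over 25% of a gene, or transcripts matching at 95% identity (BLAST 2.17.0), are stated beside the tested gene.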

Additional observations from a re-analysis of the deposited data

How the results depend on the processing

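Of the 43 tested members, 23 passed the adjusted p. All 23 kept their call without a filter on low counts, 22 with library totals, 21 with limma at either pseudocount (1 or 0.1) and 18 with DESeq2, and the 20 of them that had 1 FPKM in 3 libraries kept it there. Leaving out 1 library kept 20 to 22. With the replicate number as a block 22 of 23 kept the call, MYB46 being lost (adjusted p = 0.0547), and 1 member stayed higher at 2-fold. Same-numbered libraries did not deviate together (correlations of -0.0212, 0.00965 and -0.00777). The members at least 2-fold higher numbered 1, but 0 with the 1 FPKM filter, which removed MYB62, 0 with limma on log2(FPKM + 1), which shrinks changes at low levels, and 0 with glmTreat. Without 1 library in turn they numbered 1 to 2, MYB108 or MYB82 being added. The members at least 2-fold lower numbered 3, but 1 with limma on log2(FPKM + 1), 2 with glmTreat, which lost MYB8, 4 without a filter and 4 with DESeq2, which both added MYB87, and 3 to 5 without 1 library in turn, 5 without WT replicate 3, when MYB52 and MYB83 were added. With library totals 11 members were higher past the adjusted p, against 7, as MYB124, MYB33, MYB6 and MYB60 entered. Over all genes, limma on log2(FPKM + 1) gave 131 higher and 488 lower at 2-fold and glmTreat 147 and 596, against 362 and 1153. Members near 0 changed sign and passed in no setting. MYB25 (-0.03) had 0.02 with library totals, 0.02 and 0.02 with limma, and -0.16 to 0.08 without 1 library. MYB122 (-0.01) had 0.03 with library totals, 0.01 with limma on log2(FPKM + 0.1), and -0.37 to 0.43 without 1 library. The ranges without 1 library were -0.06 to 0.11 for MYB1, -0.15 to 0.10 for MYB32, -0.25 to 0.08 for MYB76 and -0.13 to 0.01 for MYB109. The causes of other changes were not tested. Low counts kept 33 members out of the test.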
